A study of Neotoma lepida with 16 samples.

Results

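The genes described here are Chuk and 7 other core members of the NF-kappaB pathway, Ikbkb, Ikbkg, Nfkb1, Nfkb2, Rela, Nfkbia and Nfkbib. They were taken as every rat probe whose gene name in the scanner files, without a trailing "_predicted", was one of the 8 symbols. The 8 genes had 12 probes among 41012 probes on the array, and they were all among the 26519 genes tested. Chuk, Ikbkb, Ikbkg and Nfkbib had 1 probe each, and Nfkb1, Nfkb2, Rela and Nfkbia had 2 probes each. All probes but the brightest Nfkbia probe were well above background in the animal's channel on 16 of 16 arrays, and none was saturated on any array. That probe counted on 15, because its spot for Mojave juniper animal 4, with a red signal of 26238, was flagged as an outlier and not counted. Chuk, which the array lists as a predicted gene, was singled out because of its diet difference in Mojave animals, so its values in those animals are given as a description and not tested.

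NF-kappaB is a family of dimeric transcription factors that is held in the cytoplasm by inhibitory IkB proteins. Signals from cytokine and pattern-recognition receptors activate the IkB kinase complex, which has 1 regulatory and 2 catalytic subunits. The complex phosphorylates the IkB proteins, these are ubiquitinated and degraded, and the freed dimers enter the nucleus and switch on inflammatory and survival genes. In the liver the pathway is known for the response to inflammatory mediators and for protecting hepatocytes from cell death induced by tumour necrosis factor. In the non-canonical branch, the kinase encoded by Chuk acts on the precursor encoded by Nfkb2.

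The study fed wild-caught desert woodrats (Neotoma lepida) of 2 populations either creosote bush or juniper and measured liver RNA, with 4 animals in each of 4 groups. The groups were Mojave animals fed creosote (4 males), Mojave animals fed juniper (2 males and 2 females), Great Basin animals fed creosote (2 males and 2 females) and Great Basin animals fed juniper (2 males and 2 females). All animals had spent 3 months in captivity on rabbit chow, and the plant was then mixed into the chow in rising amounts over 5 days. There was no chow-only group, so higher on creosote and lower on juniper cannot be told apart. Creosote is the plant that Mojave woodrats eat in the wild, and juniper is a food of Great Basin woodrats.

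Each animal had 1 two-colour Agilent rat array, with the animal's RNA in the red dye (Cy5) and a pool of the RNA of all 16 animals in the green dye (Cy3). Values are log2 ratios of animal over pool, so 0 is the level of the pool and a difference of 1 is a doubling. Dyes were not swapped, and a dye bias shared by every array cancels when groups are subtracted. The arrays fill 4 slides, each with 1 animal of every group. Precision is set by having 4 arrays in a group: a typical gene's diet difference had a standard error of 0.10 in Mojave and 0.09 in Great Basin animals (medians over all genes). From 46.4% to 76.2% of probe spots were well above background on an array, with slide 1 the dimmest. Each group was always at the same position of a slide, Mojave creosote at 2, Mojave juniper at 3, Great Basin creosote at 1 and Great Basin juniper at 4, so diet, population and interaction cannot be told apart from array position. The probes are rat sequences and were not aligned to woodrat transcripts, so which woodrat RNA each one bound is not known, and no gene's level is set against another's. For 10 of 12 hepatocyte markers, Alb and Ttr among them, a probe was well above background on all 16 arrays, while Apoa1 and Tf did not reach 4 arrays and were not tested.

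Differences were tested with limma's moderated test in 1 model of the 4 groups and sex, and a gene was called where its p, adjusted by Benjamini-Hochberg over all 26519 genes, was under 0.05. By its single probe, every Mojave animal on creosote had a lower Chuk value than every Mojave animal on juniper. In a piece of liver, fewer cells of a type and less RNA per cell cannot be told apart. Of the 7 other genes, 1 was called for diet in Mojave animals, Ikbkb, which rose on creosote. Of all genes tested, 9.54% were called, 3.82% higher and 5.72% lower, and 3 of the 7 had an unadjusted p under 0.05, against 22.1% of all genes. In Great Basin animals none of the 8 genes was called by limma for diet, while 4.01% of all genes were, 2.07% higher and 1.94% lower. An unadjusted p under 0.05 was found for 2 of the 8 and for 17% of all genes. By brightest probe, the groups did not overlap for 3 of the 7 genes in the Mojave diet comparison (Ikbkb, Nfkbib and, with 3 juniper animals measured, Nfkbia) and for 0 of 8 in Great Basin animals, against 16.3% and 10.2% of all genes with a value on every array.

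**Figure D1:**
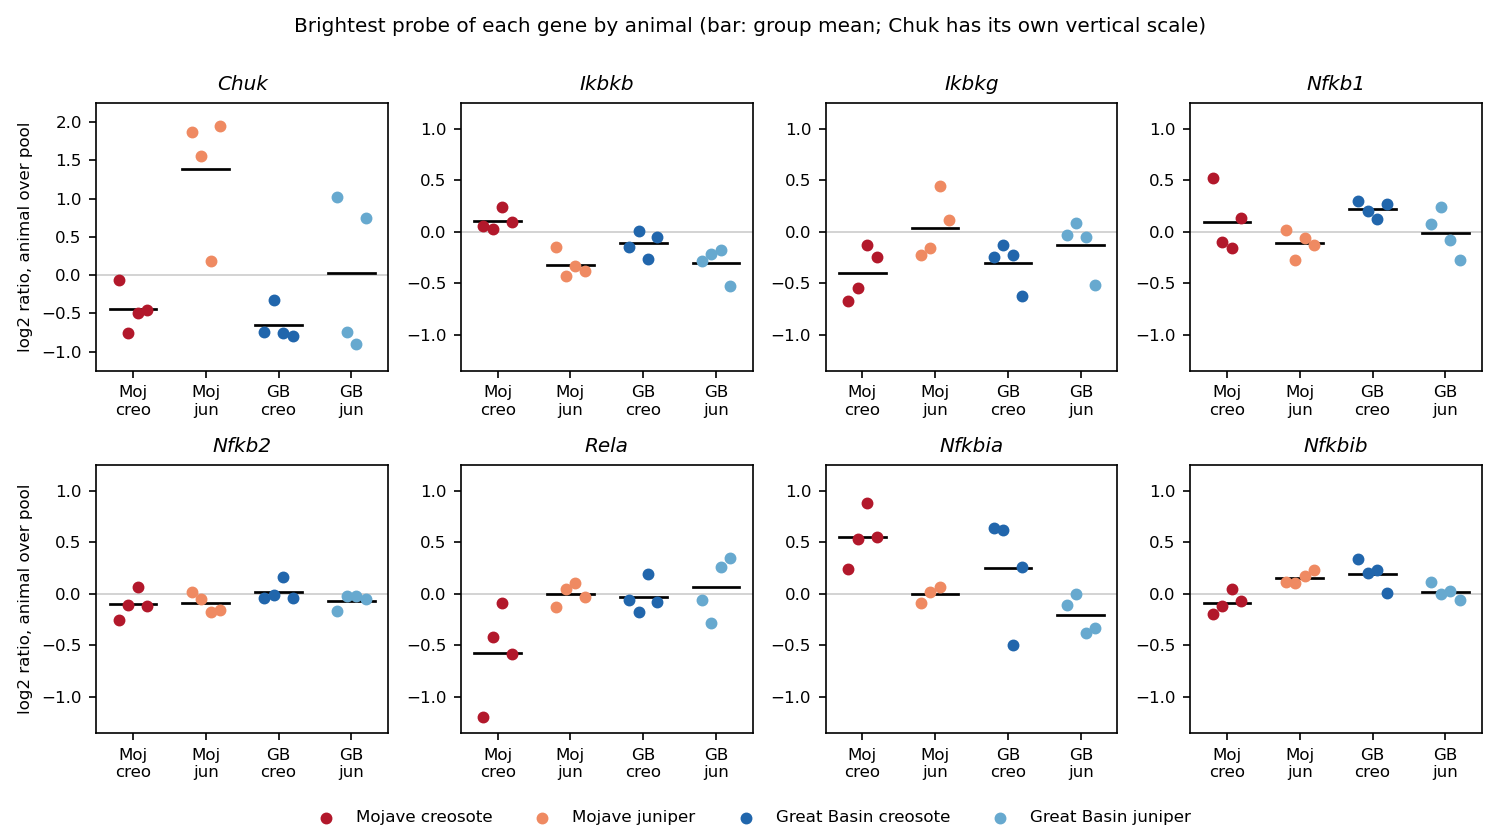
Log2 ratio of animal over pool (vertical axis) for the brightest probe of each of the 8 genes, with 1 point per animal in 4 groups (Moj, Mojave; GB, Great Basin; creo, creosote; jun, juniper) and a bar at the group mean. Chuk has a wider vertical scale than the others: all 8 creosote animals lie between -0.79 and -0.06, while 3 Mojave juniper animals lie between 1.55 and 1.95 and 2 Great Basin juniper animals at 0.75 and 1.02.

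Chuk encodes IKK alpha, a catalytic subunit of the IkB kinase complex. Its log2 ratio was -0.06, -0.76, -0.49 and -0.46 in Mojave animals 1 to 4 on creosote, against 1.87, 1.55, 0.19 and 1.95 in Mojave animals 1 to 4 on juniper. Great Basin animals had -0.74, -0.32, -0.75 and -0.79 on creosote, against 1.02, -0.74, -0.90 and 0.75 on juniper. All 8 creosote animals were therefore below the pool, whereas the juniper animals spread from the highest to the lowest value of the study. In Mojave animals the diet groups did not overlap, but juniper animal 3 stood well below the other 3. Among Great Basin animals, 2 on juniper were above every creosote animal and the other 2 were within or below the creosote range.

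The group means of Chuk were -0.44 ± 0.29 in Mojave creosote, 1.39 ± 0.82 in Mojave juniper, -0.65 ± 0.22 in Great Basin creosote and 0.03 ± 0.99 in Great Basin juniper animals (SD, n = 4 each). From high to low the order was Mojave juniper, Great Basin juniper, Mojave creosote and Great Basin creosote, and each neighbouring pair in that order overlapped in range. The fitted Mojave diet difference was -1.94 ± 0.45 (SE), or 3.85-fold lower on creosote, a direction that the choice of the gene fixes. As a description, Mojave animals exceeded Great Basin animals by 1.36 ± 0.42 on juniper and by 0.09 ± 0.45 on creosote, and the interaction, the Mojave minus the Great Basin diet difference, was -1.26 ± 0.62. In Great Basin animals, where the gene was tested, the diet difference was -0.68 ± 0.42 (adjusted p = 0.454, limma), with a 95% interval of -1.58 to 0.21. That difference was negative on 2 of 4 slides.

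The same split was visible before any normalisation. The mean red signal of the Chuk spot was 141 to 245 intensity units in Mojave creosote, 395 to 2345 in Mojave juniper, 149 to 266 in Great Basin creosote and 152 to 827 in Great Basin juniper animals. The green signal of the pool at the same spot stayed between 147 and 267 on all 16 arrays. Over the 24 spots around the Chuk spot, the median log2 ratio of an array was between -0.09 and 0.11, so the neighbouring spots did not share the shift. Mojave juniper animal 3 and Great Basin juniper animal 3 were both on slide 1, the dimmest, and Great Basin juniper animal 2, also low, was on slide 4. Chuk had a single probe, so its pattern could not be set beside a second one.

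Ikbkb encodes IKK beta, the catalytic subunit that phosphorylates the IkB proteins in the canonical branch. Its log2 ratio was 0.06, 0.03, 0.24 and 0.09 in Mojave creosote animals, against -0.15, -0.43, -0.33 and -0.38 in Mojave juniper animals. Every creosote animal was above every juniper animal, and the difference of 0.42 ± 0.10 (SE; 1.34-fold) was called (adjusted p = 0.0144, limma) and positive on 4 of 4 slides. Great Basin Ikbkb values were -0.15, 0.01, -0.26 and -0.05 on creosote, against -0.28, -0.22, -0.18 and -0.53 on juniper. These ranges overlapped, and the difference of 0.19 ± 0.09 was not called (adjusted p = 0.319). The test of the difference between the populations' diet effects gave 0.23 ± 0.13 (adjusted p = 0.502), so a diet effect particular to Mojave animals was not shown.

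The Mojave call of Ikbkb was lost without Mojave juniper animal 2 (0.36, adjusted p = 0.0758), without slide 1 (0.38, adjusted p = 0.0797), in males alone (0.39, adjusted p = 0.122) and with the red channel alone (0.61, adjusted p = 0.128). It was positive in each, and with the deposited ratios it was 0.78 (adjusted p = 0.0291). As in every Mojave diet comparison, the creosote animals were all male, and sex was a term of the model.

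Ikbkg encodes NEMO, the regulatory subunit that joins the kinase complex to upstream signals. It averaged -0.40 ± 0.25 in Mojave creosote and 0.04 ± 0.30 in Mojave juniper animals (SD, n = 4 each), and the groups overlapped. The diet difference was -0.35 ± 0.17 in Mojave (adjusted p = 0.26) and -0.18 ± 0.16 in Great Basin animals (adjusted p = 0.647). Within slides Ikbkg was lower on creosote on 4 of 4 in Mojave and 3 of 4 in Great Basin animals.

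**Figure D2:**
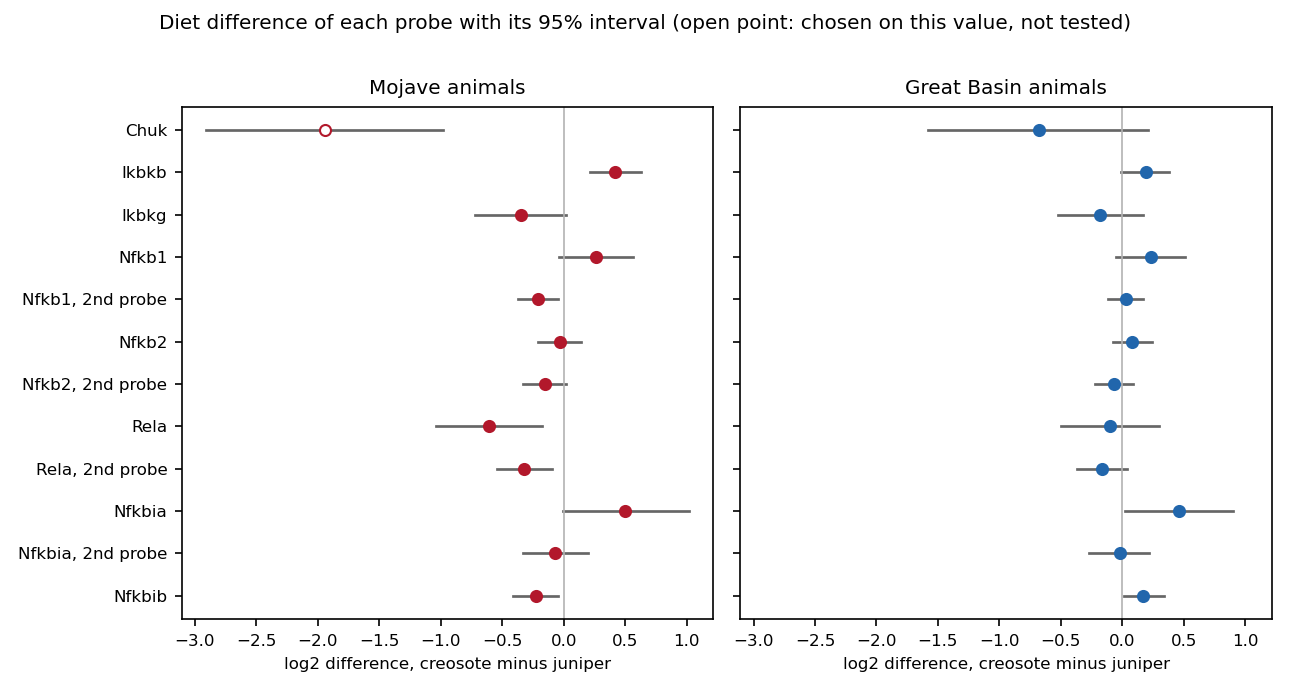
Log2 difference, creosote minus juniper (horizontal axis), of each of the 12 probes in Mojave animals (left) and Great Basin animals (right), with its 95% interval. The open point is Chuk in Mojave animals at -1.94, which was chosen on that value; Ikbkb in Mojave animals at 0.42 is the single called difference.

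Rela encodes the subunit that carries the main transactivation domain of the canonical dimer. Its brightest probe was -1.19, -0.42, -0.09 and -0.58 in Mojave creosote animals, against -0.13, 0.05, 0.10 and -0.03 in Mojave juniper animals. Mojave creosote animals 1, 2 and 4 were below every juniper animal, and creosote animal 3 lay inside the juniper range. The difference was -0.61 ± 0.20 and missed the threshold (adjusted p = 0.0749). The second Rela probe gave -0.32 ± 0.10 (adjusted p over all probes = 0.0618), with groups that did not overlap, and both probes were lower on creosote on 4 of 4 slides. The second probe was the dimmest of all member probes, with a mean log2 intensity over both dyes of 6.56, against 10.55 for the brightest Rela probe. How well so dim a probe measures the difference was not tested. The brightest probe was called without Mojave creosote animal 3 (-0.77, adjusted p = 0.0176), with the replicate number as a block (-0.67, adjusted p = 0.0189) and when the arrays were centred on their median in place of the intensity-dependent loess correction (-1.05, adjusted p = 0.00975). The brightest probe was further from the threshold with the red channel alone (-0.47, adjusted p = 0.373), in males alone (-0.53, adjusted p = 0.278) and with the deposited values (-0.63, adjusted p = 0.112). Of the 16 exclusions of 1 animal, 1 gave a call, and adjusted p reached 0.176. In Great Basin animals the 2 probes gave -0.10 ± 0.19 and -0.17 ± 0.10, neither called (adjusted p = 0.842 and 0.42).

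Nfkb1 and Nfkb2 encode precursors that are processed to DNA-binding subunits of the dimers. Neither was called for diet in either population. The brightest Nfkb1 probe, printed at 10 spots per array whose log2 ratios had an SD of 0.016 to 0.059, was 0.52, -0.10, -0.16 and 0.13 in Mojave creosote animals, against 0.02, -0.27, -0.06 and -0.13 in Mojave juniper animals. Its diet difference was 0.26 ± 0.14 in Mojave (adjusted p = 0.317) and 0.23 ± 0.13 in Great Basin animals (adjusted p = 0.403). The second Nfkb1 probe pointed the other way in Mojave animals, at -0.21 ± 0.07 (adjusted p over all probes = 0.0911), and was 0.03 ± 0.07 in Great Basin animals, so the 2 probes of Nfkb1 disagreed. The brightest Nfkb2 probe gave -0.03 ± 0.08 in Mojave and 0.08 ± 0.08 in Great Basin animals (adjusted p = 0.877 and 0.662), with 95% intervals of -0.21 to 0.14 and -0.08 to 0.24. With median centring in place of loess its Mojave difference was -0.35 (adjusted p = 0.0238) and its interaction -0.49 (adjusted p = 0.0375), both called. Its second probe gave -0.15 ± 0.08 and -0.07 ± 0.07.

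Nfkbia encodes IkB alpha, the inhibitor that is itself a target of NF-kappaB. Its brightest probe was 0.24, 0.53, 0.88 and 0.55 in Mojave creosote animals, against -0.09, 0.02 and 0.07 in Mojave juniper animals 1 to 3. The spot of Mojave juniper animal 4 was flagged as an outlier by the scanner software and left out of the fit. All measured creosote animals were above all measured juniper animals, but the difference of 0.50 ± 0.24 was not called (adjusted p = 0.239). Great Basin Nfkbia values were 0.64, 0.62, -0.50 and 0.26 on creosote, against -0.11, 0.00, -0.38 and -0.33 on juniper, and creosote animal 3 was the lowest of the 8. The difference was 0.46 ± 0.20 (adjusted p = 0.262), and without Great Basin creosote animal 3 it was called at 0.72 (adjusted p = 0.015). Leaving out that animal also brought the Mojave difference past the threshold (0.57, adjusted p = 0.0364). It was the only 1 of the 16 exclusions of 1 animal to give a call in either population. Adjusted p over the 16 reached 0.49 in Mojave and 0.529 in Great Basin animals. The second Nfkbia probe did not show the difference, at -0.07 ± 0.12 in Mojave and -0.02 ± 0.11 in Great Basin animals (adjusted p over all probes = 0.825 and 0.949). The array lists it under a different transcript record from that of the brightest probe. It was also far dimmer, with a mean log2 intensity over both dyes of 6.86, against 13.95 for the brightest probe. Whether so dim a probe could show the difference was not tested.

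Nfkbib encodes IkB beta, a second inhibitor. It was -0.20, -0.12, 0.05 and -0.07 in Mojave creosote animals, against 0.11, 0.10, 0.17 and 0.23 in Mojave juniper animals, without overlap. Great Basin animals had 0.34, 0.20, 0.23 and 0.01 on creosote, against 0.11, 0.00, 0.03 and -0.06 on juniper, with ranges that overlapped. The diet difference was -0.23 ± 0.08 in Mojave (adjusted p = 0.103) and 0.17 ± 0.08 in Great Basin animals (adjusted p = 0.265), and neither was called. The interaction, which compares these 2 differences, was -0.41 ± 0.11 (adjusted p = 0.149), and Nfkbib had the lowest adjusted p of the 7 genes tested for it. Without Great Basin creosote animal 4 the interaction passed the threshold (-0.46, adjusted p = 0.0449). That was the only 1 of the 16 exclusions of 1 animal to do so, and its adjusted p reached 0.311. None of the 16 brought the Mojave difference past the threshold (adjusted p up to 0.229). With median centring both the interaction (-0.60, adjusted p = 0.0246) and the Mojave difference (-0.39, adjusted p = 0.0188) were called.

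Between the populations, none of the 7 genes other than Chuk was called by limma on either diet or for the interaction. On creosote 3 of the 7 had an unadjusted p under 0.05 (14.1% of all genes did), on juniper 0 (8.02%) and for the interaction 1 (13%), while 0.0716%, 0.0113% and 0% of all genes were called. The largest population difference on creosote among the 7 was that of Rela, -0.58 ± 0.20 (adjusted p = 0.217), and Nfkbib was -0.28 ± 0.08 (adjusted p = 0.157). Without Great Basin creosote animal 4 the Nfkbib difference was -0.33 and was called (adjusted p = 0.043). That was the only call of Nfkbib on creosote in the 16 exclusions of 1 animal, where adjusted p reached 0.471. With median centring, Nfkb1, Nfkb2, Nfkbib and Rela were called lower in Mojave animals on creosote (adjusted p from 0.0159 to 0.0392). With that setting 3124 of all 26519 genes were called on creosote, 2938 of them lower in Mojave animals. By brightest probe, Ikbkb was the single gene of the 7 whose populations did not overlap on creosote (5.92% of all genes did not), with 0.03 to 0.24 in Mojave and -0.26 to 0.01 in Great Basin animals, a difference of 0.21 ± 0.10 (adjusted p = 0.353). The second Nfkb1 probe also did not overlap on creosote, with -0.43 to -0.18 in Mojave and -0.08 to 0.02 in Great Basin animals, and its difference was -0.23 ± 0.07 (adjusted p over all probes = 0.176). On juniper, by brightest probe, every one of the 7 overlapped between populations (6.67% of all genes did not), and the fitted differences ran from -0.10 ± 0.13 for Nfkb1 to 0.18 ± 0.22 for Nfkbia.

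Across the 16 animals, the correlation of each other gene's brightest probe with Chuk is given as a description, since the animals share diets and slides, and without Nfkbia, which lacks 1 animal. Pearson's r over 16 animals was -0.545 for Ikbkb, -0.437 for Nfkb1 and between -0.262 and 0.221 for Ikbkg, Nfkb2, Nfkbib and Rela. After the group means were removed, r was -0.234 for Ikbkb and -0.474 for Ikbkg. The genes whose pattern was most like that of Chuk were outside the pathway. By Pearson's r over the 16 animals, among 10318 named genes with a value on every array, they were Ercc8 (0.955), which encodes a protein of transcription-coupled DNA repair, Pgm1 (0.942), which encodes phosphoglucomutase, Chfr (0.926), a ubiquitin ligase of a mitotic checkpoint, Net1 (0.908), Synpo (0.905), an actin-associated protein, and Olr357 (0.902), an olfactory receptor.

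The likeness lay in which juniper animals were high. Ercc8 lay between -0.51 and 0.02 in the 8 creosote animals, against 1.14, 1.16, -0.03 and 1.20 in Mojave juniper animals and 1.01, -0.11, -0.41 and 1.03 in Great Basin juniper animals. Pgm1 lay between -0.52 and 0.19 in creosote animals, against 1.34, 1.05, 0.19 and 0.82 in Mojave juniper animals and 0.82, -0.20, -0.39 and 0.62 in Great Basin juniper animals. As for Chuk, Mojave juniper animals 1, 2 and 4 and Great Basin juniper animals 1 and 4 were the 5 highest of the 16 for both genes. The other probes of Ercc8 did not share the pattern. The 2 other probes of Ercc8 had r of 0.088 and -0.028 with Chuk, the other probe of Pgm1 had 0.405 and the other probe of Chfr had -0.048. Both other Ercc8 probes and the other Pgm1 probe were well above background on all 16 arrays, and the other Chfr probe was on 5. Which transcript each of these probes bound was not tested.

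**Figure D3:**
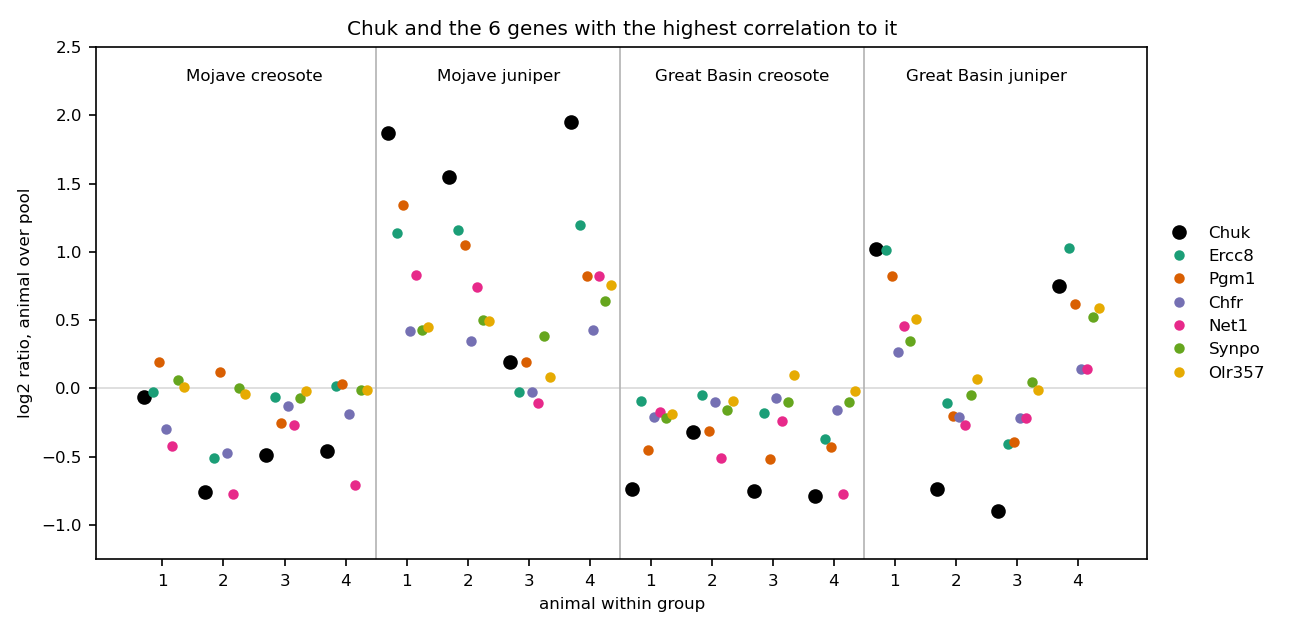
Log2 ratio of animal over pool (vertical axis) of Chuk and of the 6 named genes with the highest Pearson correlation to it, for each of the 4 animals of the 4 groups (horizontal axis), points set side by side within an animal. Mojave juniper animals 1, 2 and 4 and Great Basin juniper animals 1 and 4 stand above the rest, and Ercc8 reaches 1.01 to 1.20 in those 5. The exception is Synpo, for which Mojave juniper animal 3 (0.38) is above Great Basin juniper animal 1 (0.35).

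Around the 8 genes, 122 other gene symbols of the pathway were listed in 6 groups by role, with old and new symbols of a gene both listed. Of these symbols 93 were on the array and 77 were tested. In Mojave animals 2 of the 77 rose and 9 fell on creosote (14.3% called, against 9.54% of all genes), and the median difference of the 77 was -0.05. In Great Basin animals 1 rose and 3 fell (5.19%, against 4.01%), with a median of 0. The median difference of all genes was -0.004 in Mojave and -0.006 in Great Basin animals. With median centring in place of loess, the Mojave counts were 0 higher and 25 lower, and the median of the 77 was -0.26. With that setting 4765 of all 26519 genes were called, 13.6% of them higher, and the median of all genes was -0.04. The split between directions therefore depended on that correction, for the 77 as for all genes. In males alone 0 of the 77 were higher and 3 lower. Of 26492 genes fitted in males, 1068 were called, 39.9% of them higher. None of the 77 was called by limma between populations or for the interaction. An unadjusted p under 0.05 was found for 11 on creosote (14.3%), 11 on juniper (14.3%) and 13 for the interaction (16.9%). Of all genes, 14.1%, 8.02% and 13% had one, while 0.0716%, 0.0113% and 0% were called.

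Of 19 adaptors and kinases upstream of the IkB kinase complex, 4 fell on creosote in Mojave animals (5.72% of all genes fell) and none was called in Great Basin animals. Myd88, the adaptor of Toll-like and interleukin-1 receptors, was -0.82, -0.93, -0.39 and -0.41 in Mojave creosote animals, against -0.01, 0.20, 0.08 and 0.03 in Mojave juniper animals. The groups did not overlap, and the difference was -0.80 ± 0.13 (adjusted p = 0.00182), against 0.02 ± 0.12 in Great Basin animals (adjusted p = 0.953). The interaction of Myd88 was -0.82 ± 0.18 and missed the threshold (adjusted p = 0.0981), as did its Mojave difference in males alone (-0.73, adjusted p = 0.0515). Irak1, a kinase recruited by Myd88, fell by 0.66 ± 0.13 (adjusted p = 0.00517), and Tradd, an adaptor of the tumour necrosis factor receptor, fell by 0.39 ± 0.10 (adjusted p = 0.0192) with -0.33 ± 0.11 for its second probe. Map3k14, the kinase that activates the product of Chuk in the non-canonical branch, fell by 0.33 ± 0.10 (adjusted p = 0.0493). The Map3k14 call was lost in 11 of the 16 exclusions of 1 animal, with the deposited values (-0.44, adjusted p = 0.174) and with the red channel alone (-0.30, adjusted p = 0.288). That of Tradd was lost in 3 exclusions, with the red channel alone (-0.22, adjusted p = 0.611) and with the deposited values (-0.34, adjusted p = 0.14). It was also lost in males alone (-0.35, adjusted p = 0.156) and with a normexp offset of 10 (-0.39, adjusted p = 0.0557). Irak1 lost its call in males alone (-0.63, adjusted p = 0.0665).

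Of 15 ligands and receptors, 1 rose and 1 fell in Mojave animals (3.82% and 5.72% of all genes) and 1 fell in Great Basin animals (1.94% of all genes). Ltbr, the lymphotoxin beta receptor of the non-canonical branch, was -1.79, -1.0, -0.56 and -0.94 in Mojave creosote animals, against -0.22, 0.00, 0.06 and 0.02 in Mojave juniper animals. Its ranges did not overlap, and the difference was -1.03 ± 0.20 (adjusted p = 0.00474) in Mojave and -0.40 ± 0.19 in Great Basin animals (adjusted p = 0.296). In males alone the Mojave difference of Ltbr was not called (-0.96, adjusted p = 0.0796). Il1rap, a co-receptor for interleukin-1, rose by 0.60 ± 0.18 in Mojave animals (adjusted p = 0.0448), a call lost in 10 of the 16 exclusions and with median centring (0.26, adjusted p = 0.415). Cd14, a co-receptor for bacterial lipopolysaccharide, fell by 0.54 ± 0.10 in Great Basin animals (adjusted p = 0.00668), but its second probe gave -0.04 ± 0.08. The Cd14 call was lost in males alone (-0.34, adjusted p = 0.33) and with the red channel alone (-0.69, adjusted p = 0.109). Tnf was -0.03 ± 0.05 and Tlr4 was -0.06 ± 0.07 in Mojave animals, neither called (adjusted p = 0.783 and 0.654).

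Of 10 genes for chaperones of the kinase complex and for ubiquitination of the IkB proteins, 3 fell in Mojave and 2 in Great Basin animals, against 5.72% and 1.94% of all genes. Hspcb, the older symbol of a cytosolic chaperone of the heat shock protein 90 family, was -0.65, -0.46, -0.44 and -0.46 in Mojave creosote animals, against -0.03, 0.08, 0.29 and 0.15 in Mojave juniper animals. It was -0.79, -0.67, -0.43 and -0.98 in Great Basin creosote animals, against 0.02, 0.03, 0.13 and 0.03 in Great Basin juniper animals. Neither pair of groups overlapped, and the differences were -0.60 ± 0.11 in Mojave (adjusted p = 0.00295) and -0.77 ± 0.10 in Great Basin animals (adjusted p = 0.000498). The second Hspcb probe gave 0.03 ± 0.18 and -0.19 ± 0.17. Hspca, its paralog, fell by 1.10 ± 0.26 in Mojave and by 1.08 ± 0.24 in Great Basin animals (adjusted p = 0.0146 and 0.0198), and its 3 other probes ranged from -1.45 to 0.06 in Mojave animals. Cul1, the scaffold of the ubiquitin ligase that acts on IkB, fell by 0.47 ± 0.12 in Mojave animals (adjusted p = 0.0203), and Btrc, the subunit that recognises phosphorylated IkB, was -0.03 ± 0.08 (adjusted p = 0.887). The Great Basin call of Hspca was lost in 3 of the 16 exclusions (Great Basin creosote animal 4 and juniper animals 2 and 4, adjusted p up to 0.0688), with the deposited values (-0.98, adjusted p = 0.0635) and in males alone (-0.95, adjusted p = 0.354). Its Mojave call was lost without slide 1 (-0.82, adjusted p = 0.0785) and in males alone (-0.95, adjusted p = 0.161). That of Cul1 was lost without Mojave juniper animal 1 (-0.45, adjusted p = 0.0707), with the deposited values (-0.46, adjusted p = 0.0741) and in males alone (-0.44, adjusted p = 0.175). Whether probes of these paralogs share transcripts was not tested.

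**Figure D4:**
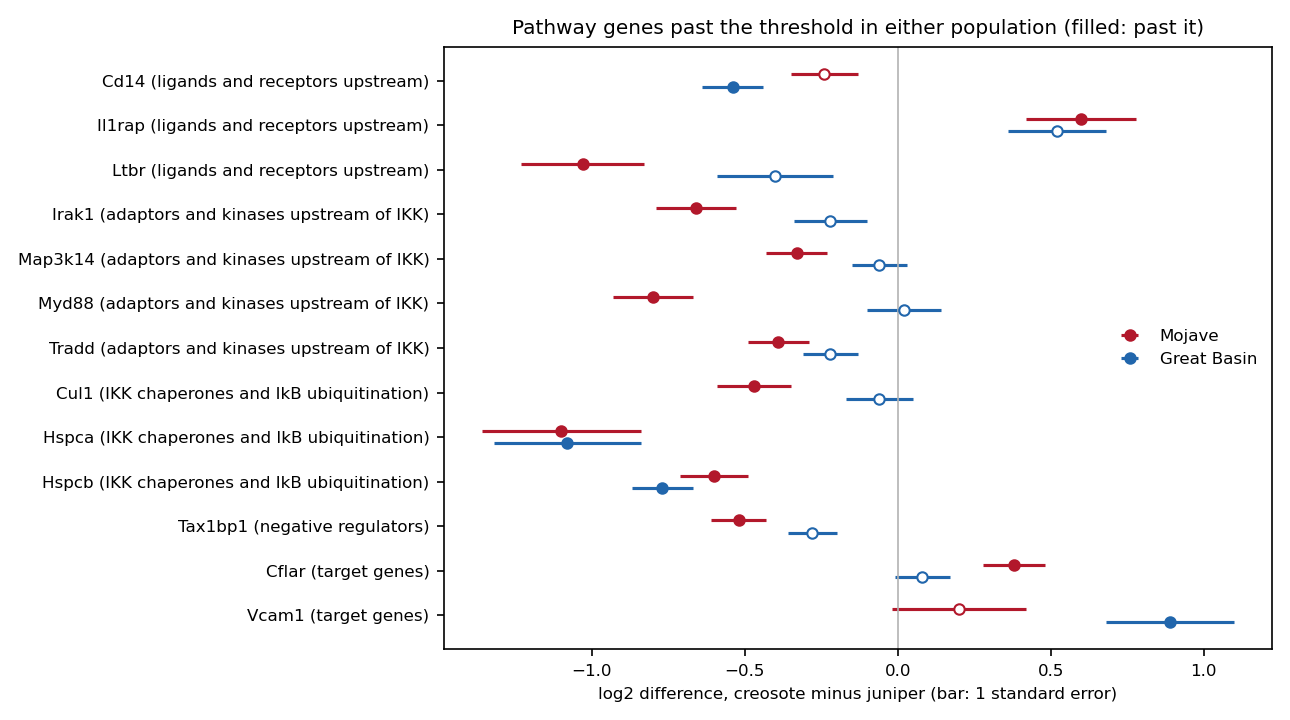
Log2 difference, creosote minus juniper (horizontal axis), of the 13 pathway genes past the threshold in at least 1 population, with 1 standard error, Mojave above Great Basin for each gene. Filled points passed the threshold; Hspca and Hspcb are filled in both populations, from -1.10 to -0.60, while Myd88 is at -0.80 in Mojave and 0.02 in Great Basin animals.

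Of 24 NF-kappaB target genes, 1 rose in each population and none fell, against 3.82% of all genes higher in Mojave and 2.07% in Great Basin animals. Cflar, an inhibitor of death receptor signalling, rose by 0.38 ± 0.10 in Mojave animals (adjusted p = 0.0246), a call lost in 5 of the 16 exclusions. It was also lost with the red channel alone (0.36, adjusted p = 0.229), in males alone (0.39, adjusted p = 0.0782) and with median centring (0.29, adjusted p = 0.0589). Vcam1, an adhesion molecule of activated endothelium, rose by 0.89 ± 0.21 in Great Basin animals (adjusted p = 0.0227), a call lost in 6 of the 16. The Vcam1 call was also lost with the deposited values (0.90, adjusted p = 0.0564), in males alone (1.10, adjusted p = 0.0648) and without slide 1 (0.87, adjusted p = 0.17). The classical inflammatory targets Icam1 and Ccl2 were -0.02 ± 0.06 and -0.01 ± 0.06 in Mojave animals and -0.07 ± 0.05 and -0.02 ± 0.05 in Great Basin animals, none called (adjusted p = 0.901, 0.93, 0.553 and 0.878). Of 4 negative regulators, Tax1bp1, a partner of the deubiquitinase A20, fell in Mojave animals by 0.52 ± 0.09 (adjusted p = 0.00229), and Tollip was 0.10 ± 0.10 (adjusted p = 0.649). None of 5 other Rel and IkB family genes was called in either population: Rel was -0.02 ± 0.07 and Nfkbiz was 0.03 ± 0.12 in Mojave animals (adjusted p = 0.912 and 0.935).

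Markers of the liver's cell types were read beside these differences. Hepatocyte markers moved with diet: 6 of 10 rose on creosote in Mojave and 5 of 10 in Great Basin animals (3.82% and 2.07% of all genes rose), and none fell. Their median log2 ratio per animal was 0.33 to 0.96 in Mojave creosote, -0.15 to 0.05 in Mojave juniper, 0.63 to 0.91 in Great Basin creosote and 0 to 0.14 in Great Basin juniper animals. Alb rose by 1.62 ± 0.31 in Mojave animals (adjusted p = 0.00416) and was 1.00 ± 0.29 in Great Basin animals (adjusted p = 0.0658). Their part in the pathway differences was not tested.

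Of the immune cells in which the pathway is active, none of 8 Kupffer cell and none of 5 lymphocyte markers was called by limma for diet. An unadjusted p under 0.05 was found for 1 Kupffer cell marker in each population and 0 lymphocyte markers. Of all genes, 9.54% were called in Mojave (3.82% higher) and 4.01% in Great Basin animals (2.07% higher), and 22.1% and 17% had an unadjusted p under 0.05. These lists are short, so counts of 0 or 1 say little beside those shares. Cd68 was 0.17 ± 0.08 and Cd163 was 0.02 ± 0.09 in Mojave animals (adjusted p = 0.209 and 0.926), and Cd3d was -0.01 ± 0.09 (adjusted p = 0.975). The per-animal median of the Kupffer cell markers was -0.12 to 0.17 in Mojave creosote, -0.08 to 0.04 in Mojave juniper, -0.12 to 0.24 in Great Basin creosote and -0.23 to 0.20 in Great Basin juniper animals. The lymphocyte markers Cd2, Cd3e, Cd4, Cd8a and Ms4a1 did not reach 4 arrays above background. Only 2 lymphocyte and 2 neutrophil markers had a probe well above background on all 16 arrays. Csf3r was the 1 of 6 neutrophil markers that rose, by 0.48 ± 0.10 in Mojave and 0.53 ± 0.09 in Great Basin animals (adjusted p = 0.00635 and 0.00317), while S100a8 was 0.11 ± 0.07 and -0.07 ± 0.07. Xlkd1 was the 1 of 6 endothelial markers that rose, by 0.56 in both populations, and Rgs5 was the 1 of 7 stellate cell markers, by 1.23 ± 0.20 in Great Basin animals (adjusted p = 0.00247). No stellate cell marker was called in Mojave animals, where Pdgfrb was 0.83 ± 0.26 and Rgs5 0.65 ± 0.22 (adjusted p = 0.0594 and 0.0786). Their per-animal median over the 7 was 0.12 to 0.44 in Mojave creosote and -0.37 to -0.07 in Mojave juniper animals, without overlap. In Great Basin animals it was -0.24 to 0.44 on creosote and -0.41 to 0.24 on juniper. None of 3 cholangiocyte markers was called, and none had an unadjusted p under 0.05 for diet.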

How the data were processed

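Liver RNA of 16 woodrats was measured on 16 two-colour rat arrays. Per the file headers and the submitters' processing notes, the authors extracted spots with Agilent Feature Extraction 9.1.3.1. The deposited scanner files give mean signal and median local background of both dyes as linear intensity, and processed intensity that the software background-subtracted and dye-normalised. The deposited series values were the log2 of processed red over green, within 5e-10. Here the mean and background intensity were corrected with normexp (offset 50), loess-normalised within each array (controls and outlier spots at weight 0), outlier spots dropped and replicate spots averaged. Probes well above background on at least 4 of 16 arrays, with a value in every group, were kept, and the brightest kept probe stood for a gene. Control spots (1639 of 45018) were left out.

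The log2 ratios of 26519 genes were fitted with limma 3.58.1 in R 4.3.3 (4 group means and sex, 11 residual degrees of freedom), adjusted by Benjamini-Hochberg at 0.05. Second probes came from the same fit over all 30154 kept probes. The fit was tested on simulated data. Replicates are separate animals with 1 array each. Replicate numbers did not pair the animals: residuals of same-numbered animals of different groups correlated at -0.024 on average (24 pairs, -0.167 to 0.136).

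The named genes are the 8 members by all probes, the genes of the pathway and marker lists past the threshold with up to 2 defining examples per list, and the 6 named genes most like Chuk over 16 animals and the 6 most like it after group means were removed. The members and lists were chosen with earlier results of these data known. Alternatives were the normexp offset, median centring, the red channel alone, the deposited values, other filters on dim probes, all probes, no sex term, males alone, slide and replicate blocks, leaving out slide 1 and leaving out each animal. Sequences of the probes were not used here.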

Additional observations from a re-analysis of the deposited data

Results flagged for a closer look

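In 47 sets of 4 animals (each probe in each group with 4 values), the highest or lowest animal was tested for standing apart from the others by Dixon's criterion, and 3 sets had such an animal. Chance alone sets apart about 1 group in 20. Chuk was -0.32 in Great Basin creosote animal 2, while the other 3 animals of that group lay between -0.79 and -0.74. The second Nfkb2 probe was 0.21 in Mojave juniper animal 1, with the other 3 between 0.04 and 0.07. The same probe was 0.24 in Great Basin creosote animal 1, with the other 3 between 0.02 and 0.05. No cause was tested for any of these values.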

How the results depend on the processing

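The Mojave diet difference of Chuk, whose direction the choice of the gene fixes, was between -2.45 with the red channel alone and -1.83 without a sex term under 12 alternatives, and between -2.22 and -1.76 when 1 animal was left out. Of the 7 genes tested for Mojave diet, 1 was called as reported, 0 with the red channel alone, 0 in males alone, 0 without slide 1 and 4 with median centring (Ikbkb, Rela, Nfkb2 and Nfkbib). With the replicate number as a block 2 were called, Rela being added (-0.67, adjusted p = 0.0189), and 0 to 2 were called when 1 animal was left out. For Great Basin diet 0 were called as reported, 1 in males alone (Nfkbia) and 0 to 1 without 1 animal. For Mojave against Great Basin on creosote 0 were called as reported, 4 with median centring and 0 to 1 without 1 animal. For the interaction 0 were called as reported, 2 with median centring and 0 to 1 without 1 animal. No called difference changed sign. The replicate block changed no other call of these 8 genes, and among the pathway genes Il1rap (0.59, adjusted p = 0.0832) and Map3k14 (-0.32, adjusted p = 0.0934) lost theirs in Mojave animals. The cause was not tested.

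Over all genes, 2531 were called for Mojave diet, against 1092 with the red channel alone, 1629 with the deposited values, 1068 in males alone, 4765 with median centring and 1582 to 2760 without 1 animal. The share of Mojave calls that were higher was 40% as reported, 52.7% with the red channel alone and 13.6% with median centring. For Great Basin diet 1063 were called, against 152 in males alone, 389 without slide 1 and 630 to 1245 without 1 animal, and the share higher was 51.6%, against 40% with the red channel alone and 63.4% with median centring. For Mojave against Great Basin on creosote 19 were called, against 3124 with median centring, 283 without a sex term, 5 in males alone, 1 with the red channel alone, 0 with the deposited values or without slide 1 and 0 to 474 without 1 animal. On juniper 3 were called, against 0 to 3 under the 12 alternatives and 0 to 15 without 1 animal. The interaction had 0, against 2422 with median centring, 65 without a sex term, 14 with slide as a block, 1 with the replicate block and 0 to 334 without 1 animal. Genes with no probe well above background on at least 4 arrays were not tested.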

Other observations

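After group means were removed, so that differences between diets and populations did not count, the named genes most like Chuk over the 16 animals were Ercc8 (Pearson's r 0.962), Nme6 (0.942), a nucleoside diphosphate kinase family gene, Polr2d (0.941), a subunit of RNA polymerase II, Aldh6a1 (0.922), a mitochondrial enzyme of valine breakdown, Olr778 (0.91), an olfactory receptor, and Pgm1 (0.909). Nme6 lay between -0.57 and 0.43 in the 8 creosote animals, against 1.29, 1.15, 0.00 and 1.21 in Mojave juniper animals and 1.36, -0.31, -0.13 and 1.12 in Great Basin juniper animals. Mojave juniper animals 1, 2 and 4 and Great Basin juniper animals 1 and 4 were again above every creosote animal, for Nme6, Polr2d and Olr778. For Aldh6a1, 4 juniper animals were above every creosote animal. The other probe of Polr2d had an r of -0.385 with Chuk, against 0.879 for the one named here, and was well above background on 15 arrays. Over all 26057 genes with a value on every array, 7 had an r over 0.9 with Chuk before group means were removed.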
